A study of Mus musculus with 4 samples.

Results

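The comparison described here is that of the array labelled induced with the array labelled uninduced in a mouse embryonic stem cell line carrying Hey1, 2 of the 4 arrays of the series. Its members were the 34958 of 45101 probe sets that the platform annotation pairs with exactly 1 gene symbol. These represent 18194 genes, each read by whichever of its probe sets had the highest average value, and 12098 genes had a value of at least 6.05, the median of all deposited values, on some array and were compared. The other 6096 genes stayed below that level on every array.

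All cells were of the murine embryonic stem cell line CM7/1. The labels describe lines made to overexpress Hey1 or Hey2 under the control of doxycycline, a tetracycline antibiotic used as a gene switch. The Hey1 uninduced group was the control of its line, and the Hey1 induced group received 1000 ng/ml doxycycline for 48 h. The corresponding pair of the Hey2 line served as background measured the same way. The labels give neither the promoter of the introduced gene nor whether a line is 1 clone. No group received doxycycline without an introduced gene, so the effects of the drug and of the gene cannot be told apart.

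Hey1 and Hey2 are basic helix-loop-helix transcriptional repressors and are known as direct targets of Notch signalling. They bind E-box and related elements near gene starts and recruit corepressors. In the developing heart, vessels and nervous system they act downstream of Notch receptors to restrict cell fates, whereas embryonic stem cells are studied mainly for pluripotency and early lineage choice.

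The introduced genes were examined first. The Hey1 probe set read 6.73 on the Hey1 uninduced array and 6.51 on the array labelled induced, against 6.72 and 6.25 on the corresponding arrays of the Hey2 line (log2 values throughout). The difference of -0.23 in the Hey1 line was thus in the direction opposite to the label. The Hey2 probe set read 4.84 and 4.51 in the Hey1 line, against 4.25 and 4.34 in the Hey2 line, below the level filter on every array. Whether these probe sets can read the introduced transcripts is not stated, so the labels could not be checked in this way, and the arrays are called labelled induced throughout.

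Each group holds 1 array, so no spread between samples and no test is available, and every difference below is a description of 2 arrays. The labels do not state that separate cultures were used. The arrays share 1 distribution of values, with sorted values within 0.0024 of each other, so a change common to all genes cannot be seen. The 45 spike-in control probe sets differed by -0.20 to 0.29 between the Hey1-line arrays. The 3' minus 5' difference of control probe sets, a measure of RNA integrity, was 0.48 and 0.51 for Actb and 0.04 and 0.04 for Gapdh on the uninduced and labelled induced arrays. In bulk RNA, fewer cells of a type and less RNA per cell cannot be told apart.

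Both Hey1-line arrays carried the pluripotency genes at high level. Pou5f1, encoding Oct4, read 13.69 uninduced and 13.67 labelled induced. Nanog read 13.27 and 13.30, Sox2 12.89 and 13.02, and Zfp42, encoding Rex1, 13.89 and 13.95. Of 26 pluripotency genes on the array, Klf2 and Tcl1 were at least 1.5-fold lower, with differences of -0.60 and -0.59, and 0 were at least 1.5-fold higher, against 0.572% and 1.64% of all genes on the array. Markers of other cell types were summed on the linear scale and given as log2. The sum of 17 fibroblast markers was 13.04 uninduced and 12.99 labelled induced, with 1 marker, Thy1, at least 1.5-fold higher. Of 16 endoderm markers, with sums of 11.89 and 11.98, and 15 mesoderm markers, with 9.74 and 9.81, 0 were past 1.5-fold in either direction. The sum of 15 trophoblast markers was 11.97 and 12.12, with Tfap2c at least 1.5-fold higher (0.60). The other Tfap2c probe sets differed by 0.47 and 0.34. The sum of 14 endothelial and blood markers was 10.84 and 10.78. Among them Pecam1 was at least 1.5-fold higher (0.61) and Tal1, below the level filter, lower (-0.63). The sum of 25 cardiac genes was 10.77 and 10.90, with only Ttn past 1.5-fold (1.03, and 1.37 in the Hey2 line). The sum of 14 neuroectoderm genes was 10.99 and 10.62, the widest gap among these lists.

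The 2 arrays of the Hey1 line were close across most genes, and the differences that stood out were mostly higher on the array labelled induced. The scaled median absolute deviation of the differences was 0.16, and 96.6% of the compared genes differed by less than 0.5. At 2-fold or more, 53 genes were higher, or 0.438% of those compared, and 4 were lower, or 0.0331%. Over single-symbol probe sets with no filter, 0.275% were at least 2-fold higher and 0.0315% lower. At 1.5-fold or more, 222 genes were higher (1.84%) and 71 lower (0.587%). The median difference was -0.01, which the shared distribution of the arrays holds near 0. The values just past 2-fold were 1.00 and -1.05, and those just short of it 1.00 and -0.99.

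Low-level genes supplied most of the large differences. When the compared genes were ranked by their mean level and divided into 3 equal parts, the lowest part held 36 of the 53 higher genes, the middle part 15 and the highest part 2. The scaled deviation was 0.21 in the lowest part and 0.12 in the highest. For 22 of the 53 genes the uninduced value lay below the level filter. Of the 53, 11 carry predicted or clone names, among them BC080696, which had the largest difference of all and read 5.73 uninduced and 10.65 labelled induced, a difference of 4.93. In the Hey2 line BC080696 read 4.08 and 4.18.

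**Figure D1:**
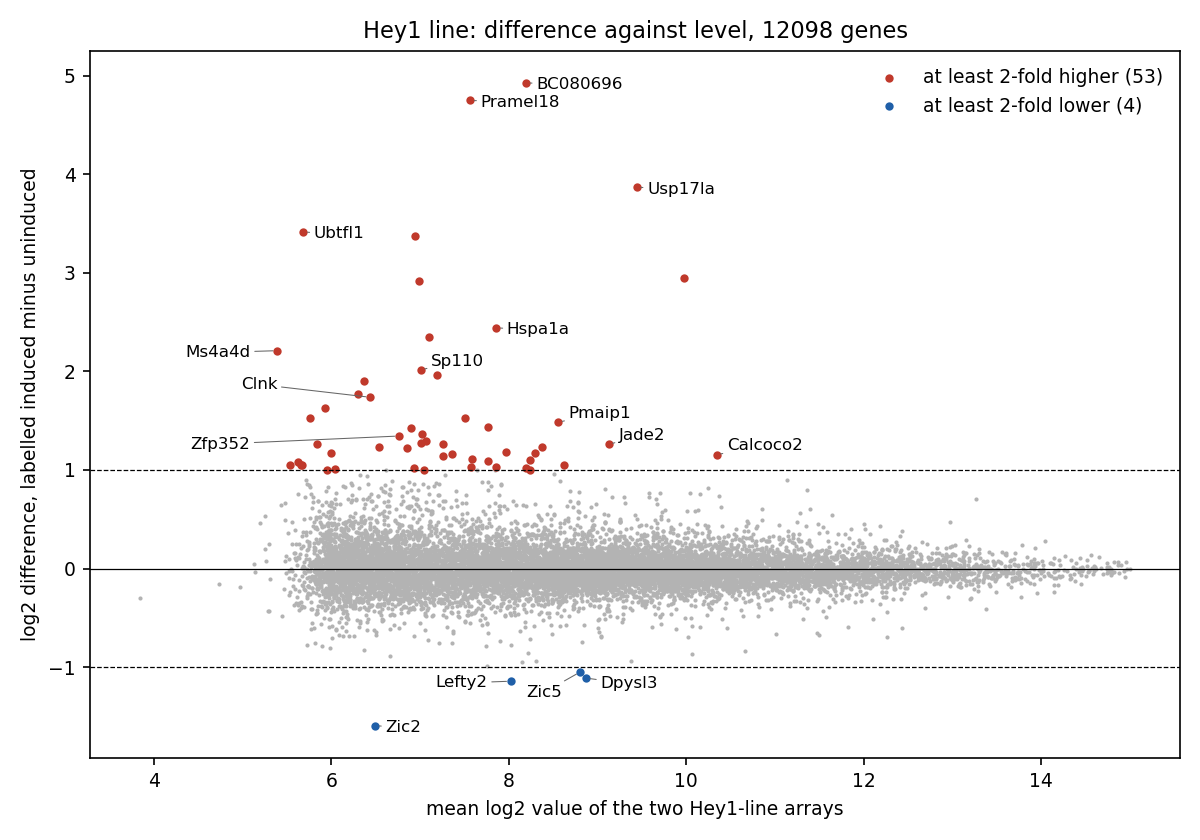
Difference between the Hey1-line arrays (labelled induced minus uninduced, log2) against their mean log2 value for 12098 genes; each point is a gene, dashed lines mark 2-fold, and there is 1 array a side. The 53 genes at least 2-fold higher lie mostly at low to middle level, and the 4 lower genes are Zic2, Lefty2, Dpysl3 and Zic5.

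Probe sets of the same gene offered a repeat reading within the same arrays, though they share RNA and are not replicates. Of the 57 genes past 2-fold, 38 had a single probe set. Among 13 with more than 1 probe set above the level filter, all probe sets lay on the same side of 0 for 12 genes, and for 9 of these 13 all passed 1.5-fold. Serpinh1, a collagen chaperone of the endoplasmic reticulum, differed by 1.23 and 1.6 in its probe sets. The exception was Jade2, a component of a histone acetyltransferase complex, with 1.26 and -0.26.

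Genes of the two-cell-like state were higher on the array labelled induced, with the highest median difference of the 50 gene lists. This state is a rare, transient condition of embryonic stem cell cultures in which genes of the two-cell embryo, normally silent, are transcribed. Of 13 listed genes on the array, 8 were at least 1.5-fold higher and 0 lower, against 1.64% and 0.572% of all 18194 genes. Their median difference was 1.05, against -0.01 for all genes. In the Hey2 line 0 of the 13 passed 1.5-fold in either direction, and the median was -0.02.

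Usp17la, a deubiquitinating enzyme of a multicopy family, read 7.51 on the Hey1 uninduced array and 11.38 on the array labelled induced, 14.6-fold higher. It read 5.36 and 5.88 in the Hey2 line, so both Hey2-line arrays lay below the Hey1 uninduced array. Ubtfl1, a relative of a ribosomal gene transcription factor active in the preimplantation embryo, read 3.98 and 7.39 in the Hey1 line, against 3.28 and 3.27 in the Hey2 line. Its value on the Hey1 array labelled induced was the only one above the level filter. Tcstv3, a two-cell embryo transcript, read 3.20 and 5.72 on the Hey1-line arrays, below the filter on both, and 3.42 and 3.24 in the Hey2 line.

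Zfp352, a zinc finger gene of the two-cell embryo, read 6.09 and 7.43 in the Hey1 line, against 5.80 and 5.95 in the Hey2 line. Its other probe set had a larger difference of 1.97. Sp110, a nuclear body protein, read 6.0 and 8.01 in the Hey1 line, against 5.62 and 5.80 in the Hey2 line, while its further probe sets differed by -0.13 and -0.03 at low level. Rfpl4b differed by 1.53, Tdpoz1 by 1.05 and Tcstv1 by 0.87, of which Rfpl4b alone passed the filter. It did so only through its value of 6.52 on the Hey1 array labelled induced, so passing is no further evidence for it. The remaining members were nearer to 0. Duxf3, the mouse Dux gene that can switch on this state, differed by 0.32 and Arg2 by 0.45, and Oog3, Oog4 and Rfpl4 differed by 0.08, 0.13 and -0.13.

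The Pramel genes, a multicopy family expressed in germ cells and early embryos, did not differ as a group. Pramel18 read 5.19 uninduced and 9.94 labelled induced, with the uninduced value below the level filter, and 4.50 and 4.77 in the Hey2 line. Of 13 family members on the array it was the only one at least 1.5-fold higher, against 1.64% of all genes. Pramel6 was lower, at 6.0 and 5.20, below the level filter. Pramel1, Pramel12 and Pramel13 differed by 0.00, 0.13 and 0.12. Near-identical copies of Usp17la and Pramel genes can share probes, so the values may stand for more than the named copy.

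**Figure D2:**
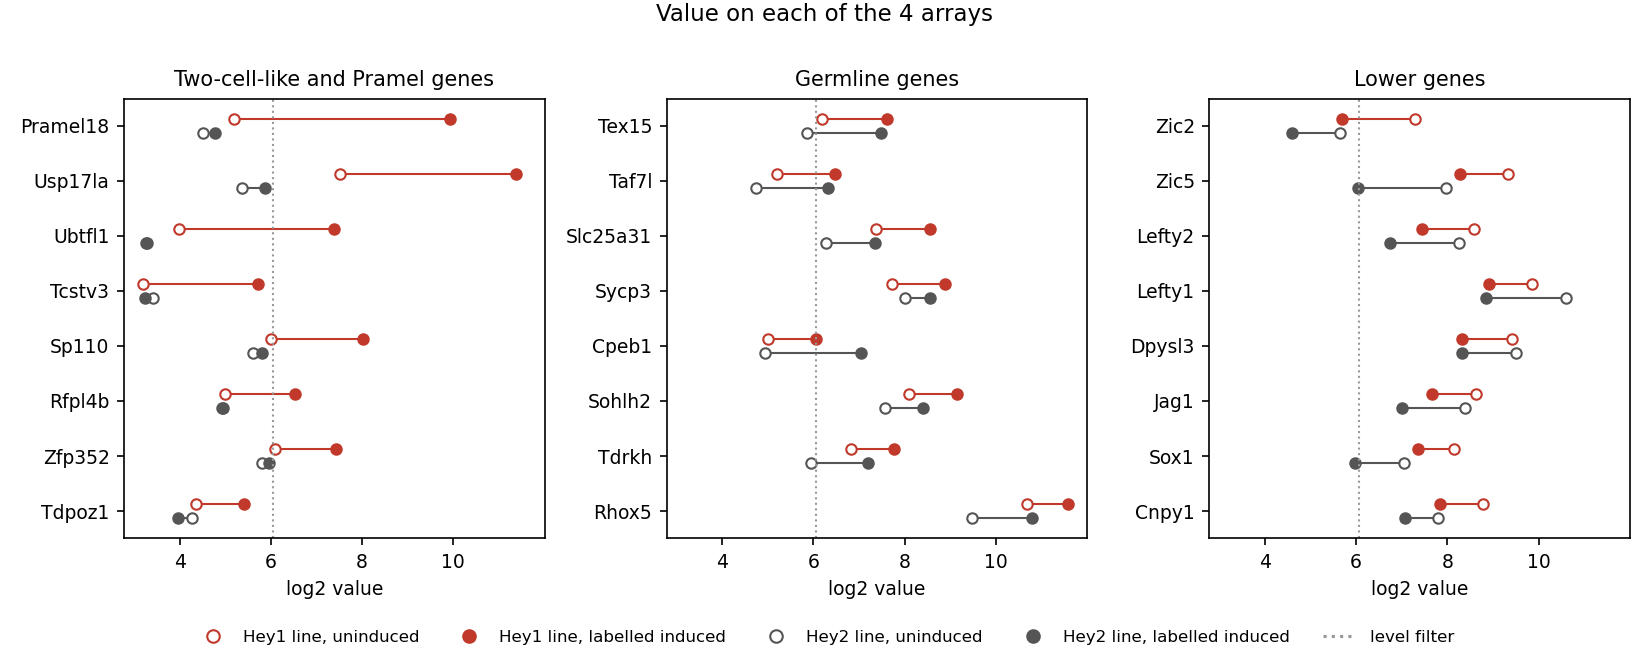
Log2 value (horizontal axis) of named genes on each of the 4 arrays; open points are uninduced and filled points labelled induced, red is the Hey1 line and grey the Hey2 line, a line joins the pair of a line, and the dotted line is the level filter of 6.05. There is 1 array per group and so no error bar. The pairs of the two-cell-like genes are wide apart in the Hey1 line. In the Hey2 line these pairs are close together and lie below the level filter. Germline genes and lower genes differ in the same direction in both lines.

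Germline genes formed a second higher group, with smaller differences. These genes act in spermatogenesis, oogenesis, meiosis and the piRNA pathway, in which small RNAs silence transposons, and many are kept silent in other cells by promoter methylation and by the PRC1.6 complex. Of 68 germline genes on the array, taken over the lists of germ cell regulators, meiotic genes and piRNA genes, 18 were at least 1.5-fold higher (26.5%) and 1 was lower, against 1.64% and 0.572% of all genes on the array. The median difference over the 68 was 0.23, against -0.01 over all genes on the array, and 0.14 in the Hey2 line. In the Hey2 line 16 were at least 1.5-fold higher and 0 lower, against 2.56% and 2.13% of all genes there, and 11 of the 68 were higher in both lines.

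Among the meiotic genes 8 of 26 were at least 1.5-fold higher, against 1.64% of all genes. Of these, Sycp1, Sycp2 and Msh4 lay below the level filter on every array. Of the 19 meiotic genes that passed it, 5 were at least 1.5-fold higher, against 1.84% of compared genes. Sycp3, a lateral element protein of the synaptonemal complex that joins paired chromosomes, read 7.72 and 8.88 in the Hey1 line, against 8.02 and 8.56 in the Hey2 line. Its values were higher on the labelled induced array of each line. Tex15, which is needed for meiotic repair and transposon silencing in the testis, read 6.19 and 7.61, and 5.87 and 7.47 in the Hey2 line. Meioc, a regulator of meiotic prophase, differed by 0.87 and Tex11, an X-linked meiotic gene, by 0.69, with 1.66 and 1.48 in the Hey2 line. Dmc1, the meiotic recombinase, differed by 0.61 in the Hey1 line, against -0.07 in the Hey2 line. On its other probe set it differed by 0.50 and 0.75, so that contrast holds on 1 probe set only. Stag3, a meiotic cohesin, differed by 0.12 and 0.63.

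Of 26 germ cell regulators, 7 were at least 1.5-fold higher and 1 lower, against 1.64% and 0.572% of all genes. Taf7l, a germ cell form of a general transcription factor subunit, read 5.20 and 6.47 in the Hey1 line, against 4.73 and 6.31 in the Hey2 line. Sohlh2, a basic helix-loop-helix factor of early germ cells, read 8.10 and 9.15, and 7.57 and 8.39 in the Hey2 line. Slc25a31, a testis form of the mitochondrial ADP/ATP carrier, read 7.38 and 8.56, and 6.27 and 7.34 in the Hey2 line. These 3 genes were higher on the labelled induced array of each line. Cpeb1, a regulator of cytoplasmic polyadenylation in oocytes, read 5.0 and 6.06, and 4.94 and 7.04 in the Hey2 line. Rhox5, an X-linked homeobox gene, read 10.68 and 11.58, and 9.47 and 10.78 in the Hey2 line. Dazl, an RNA-binding protein of germ cells, differed by 0.79, against 0.89 for the Hey2 pair, and Rhox9 by 0.69, against -0.27. The 1 lower gene was Zp3, an egg coat protein, with -0.59 in the Hey1 line.

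Of 18 piRNA pathway genes, 3 were at least 1.5-fold higher in the Hey1 line, Tdrkh, Piwil2 and Mael, against 1.64% of all genes. Tdrkh, a Tudor domain protein of the mitochondrial surface, read 6.81 and 7.76, and 5.94 and 7.20 in the Hey2 line. Piwil2, a PIWI protein that binds piRNAs, differed by 0.83 and 0.61. Mael differed by 0.65 and 0.16, and Ddx4, an RNA helicase of germ cells, by 0.46 and 0.65.

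The enzymes and complexes that keep these genes silent differed less. Dnmt3a, a de novo DNA methyltransferase, read 9.77 and 10.53 in the Hey1 line, against 9.74 and 10.46 in the Hey2 line, and its 5 probe sets differed by 0.51 to 0.76. It was the only 1 of 13 DNA methylation genes past 1.5-fold, and Dnmt3b and Dnmt3l differed by 0.10 and 0.21. Of 20 PRC1.6 and histone H3K9 repressor genes and 11 PRC2 genes, 0 passed 1.5-fold in either direction. Among all genes on the array 1.64% were at least 1.5-fold higher and 0.572% lower, so counts of 0 or 1 in lists this short lie near that share.

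The promoters of 4 higher germline genes are shown because they hold CACGTG, the palindromic E-box that basic helix-loop-helix proteins bind. The sequences are the 250 bases before the start in RefSeq, assembly GRCm38.p6, written 5' to 3' on the gene's strand. CACGTG is in capitals, as is TTCCCGC, an E2F-like element, in either orientation. Sycp3 lies at chr10:88459337-88459586 on the plus strand, Slc25a31 at chr3:40708621-40708870 on the plus strand, Taf7l at chrX:134476491-134476740 on the minus strand and Mael at chr1:166238745-166238994 on the minus strand.
Sycp3: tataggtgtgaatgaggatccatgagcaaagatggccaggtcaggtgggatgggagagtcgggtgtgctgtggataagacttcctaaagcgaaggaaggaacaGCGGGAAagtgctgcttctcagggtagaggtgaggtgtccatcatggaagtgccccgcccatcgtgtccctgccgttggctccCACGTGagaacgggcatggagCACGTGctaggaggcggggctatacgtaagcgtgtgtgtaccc
Slc25a31: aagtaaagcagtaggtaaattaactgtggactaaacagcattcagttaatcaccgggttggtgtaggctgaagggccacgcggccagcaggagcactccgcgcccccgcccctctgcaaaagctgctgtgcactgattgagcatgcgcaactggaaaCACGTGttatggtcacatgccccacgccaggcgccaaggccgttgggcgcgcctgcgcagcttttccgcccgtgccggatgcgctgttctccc
Taf7l: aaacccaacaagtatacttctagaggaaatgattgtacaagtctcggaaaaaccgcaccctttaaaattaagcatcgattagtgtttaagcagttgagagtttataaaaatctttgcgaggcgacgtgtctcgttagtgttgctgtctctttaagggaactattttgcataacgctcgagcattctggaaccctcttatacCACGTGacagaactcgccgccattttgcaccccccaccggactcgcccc
Mael: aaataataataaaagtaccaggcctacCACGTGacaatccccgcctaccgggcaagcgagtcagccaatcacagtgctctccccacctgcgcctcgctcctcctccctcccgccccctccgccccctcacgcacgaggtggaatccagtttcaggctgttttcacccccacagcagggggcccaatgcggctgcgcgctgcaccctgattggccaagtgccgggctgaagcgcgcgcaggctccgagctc
Counted from the start, the CACGTG matches begin at -64 and -43 in Sycp3, at -93 in Slc25a31, at -49 in Taf7l and at -223 in Mael.

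Both strands were searched over the 300 bases from 250 before to 50 after each start. CACGTG was found in 7.15% of all 32851 promoters and in 9.94% of those of compared genes. TTCCCGC was found in 4.6% and 8.17%. Of the 44 promoters of 37 compared germline genes, 31.8% held CACGTG and 29.5% TTCCCGC. By gene, CACGTG was found for 5 of the 11 germline genes at least 1.5-fold higher and 8 of the 26 that were not, so it was also frequent among germline genes with little difference. Over all genes at least 1.5-fold higher it was found for 15 of 171 (8.77%), against 11.8% of compared genes. A match is a description of the letters and not evidence of binding.

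Among single genes outside these groups, Hspa1a had the largest difference of a named gene. Hspa1a, an inducible cytosolic heat shock protein of the Hsp70 family, read 6.64 and 9.08 in the Hey1 line, 5.43-fold higher, and 5.48 and 6.30 in the Hey2 line. Hspa1b, its near-identical neighbour whose probes can share its transcripts, read 9.84 and 10.65, and 8.95 and 9.43 in the Hey2 line. Of 23 cytosolic heat shock genes on the array these were the 2 at least 1.5-fold higher, against 1.64% of all genes, and the median over the 23 was 0.05. Hspa8, the constitutive family member, differed by 0.01 and Dnajb1, a cochaperone, by -0.18. The Hspa1a promoter at chr17:34972157-34972406, minus strand, GRCm38.p6, is shown for its heat shock element letters GAANNTTC, in capitals, which begin at -104 counted from the start and which 7.86% of all promoters hold.
Hspa1a: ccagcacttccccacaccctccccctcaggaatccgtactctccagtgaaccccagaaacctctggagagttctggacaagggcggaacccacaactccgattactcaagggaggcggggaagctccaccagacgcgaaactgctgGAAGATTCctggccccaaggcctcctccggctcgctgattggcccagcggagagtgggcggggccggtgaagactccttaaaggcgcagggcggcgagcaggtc

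Other genes at least 2-fold higher had varied roles and were not tested as a group. Clnk, an adaptor of immune receptor signalling, read 5.57 and 7.30 in the Hey1 line, against 5.07 and 6.93 in the Hey2 line. Ms4a4d, a membrane protein of the MS4A family, differed by 2.21 in the Hey1 line, against 1.31 in the Hey2 line. Calcoco2, a receptor for selective autophagy, read 9.76 and 10.92, and 8.45 and 10.03 in the Hey2 line. Ptgs2, the inducible cyclooxygenase of prostaglandin synthesis, read 6.34 and 7.71, and 4.41 and 5.71 in the Hey2 line. Pmaip1, encoding the proapoptotic Noxa, read 7.81 and 9.30, and 8.02 and 8.72 in the Hey2 line. Pmaip1 was the only 1 of 29 p53 pathway and target genes and of 20 Bcl2 family genes past 1.5-fold. Over all genes on the array, 1.64% were at least 1.5-fold higher and 0.572% lower. Cebpd, a leucine zipper transcription factor, differed by 1.43 and 0.78, and Krt19, a keratin, by 1.29 and -0.18. Of 36 interferon and innate sensing genes 3 were at least 1.5-fold higher, Sp110, Ifit2 and H2-K1, and 0 lower, against 1.64% and 0.572% of all genes, and the median was 0.05.

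Of 35 imprinted genes 4 were at least 1.5-fold higher and 0 lower, against 1.64% and 0.572% of all genes. Sgce read 6.77 and 7.94 in the Hey1 line, against 6.64 and 7.44 in the Hey2 line, and its neighbour Peg10 differed by 0.67 and 0.68. Slc38a4, an amino acid transporter, differed by 0.62 and 0.30. Grb10, an adaptor that restrains insulin signalling, read 8.40 and 9.18 in the Hey1 line but 12.39 and 12.65 in the Hey2 line, and its other probe sets differed by -0.46 and -0.01 in the Hey1 line. The gap between the lines exceeded the difference within either. Of 25 immediate early genes, Ptgs2, Egr1 and Fos were at least 1.5-fold higher, against 1.64% of all genes. Egr1 read 8.13 and 9.02 in the Hey1 line but 9.43 and 8.78 in the Hey2 line, and Fos differed by 0.66 and -0.18.

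The lower side held fewer genes, led by Zic2, Lefty2, Dpysl3 and Zic5. All 4 of these also passed 2-fold on the lower side in the Hey2 pair. Zic2 and Zic5, neighbouring zinc finger genes of the neural plate and of primed pluripotent cells, were both among them. Zic2 read 7.29 and 5.70 in the Hey1 line, the latter below the level filter, and 5.64 and 4.59 in the Hey2 line. The Hey2 uninduced array was thus as low as the Hey1 array labelled induced. Zic5 read 9.33 and 8.28, and 7.97 and 6.05 in the Hey2 line, and its probe sets differed by -0.82, -1.26 and -1.05. Zic1 and Zic4 lay below the level filter, with differences of -0.19 and -0.12.

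Lefty1 and Lefty2 encode secreted antagonists of Nodal, a signal that patterns the early embryo. Lefty2 read 8.59 and 7.45 in the Hey1 line, against 8.25 and 6.75 in the Hey2 line. Lefty1 read 9.85 and 8.91, and 10.60 and 8.85 in the Hey2 line. Cfc1, a Nodal coreceptor, read 7.69 and 7.06, and these were the 3 of 17 Nodal pathway genes at least 1.5-fold lower, with 0 higher, against 0.572% and 1.64% of all genes. The ligand and the other coreceptor differed little, with 0.05 for Nodal and 0.00 for Tdgf1. Skil, a Smad corepressor, differed by -0.40 and Gdf3, a related ligand, by -0.32.

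Neural genes were also among the lower ones. Dpysl3, a cytoskeletal protein of growing neurites, read 9.42 and 8.31 in the Hey1 line, against 9.51 and 8.33 in the Hey2 line. Its probe sets differed by -0.56, -0.77 and -1.11, whereas its relatives Dpysl2, Dpysl4 and Dpysl5 differed by -0.17, -0.09 and 0.08. Of 14 neuroectoderm genes on the array, 4 were at least 1.5-fold lower and 0 higher, against 0.572% and 1.64% of all genes, with a median of -0.12. Of 20 neurite growth genes, the list that holds Dpysl3, 2 were at least 1.5-fold lower and 0 higher, with a median of -0.14. Sox1, a neural plate factor, read 8.14 and 7.35, and 7.05 and 5.98 in the Hey2 line, although its other probe set differed by -0.01. Ncam1, a neural adhesion molecule, read 8.44 and 7.81, and 7.67 and 7.17 in the Hey2 line. The remaining lower neuroectoderm genes were Zfhx3 and Zfp521. With the mean of probe sets, Sox1 (-0.40), Ncam1 (-0.27) and Zfhx3 (-0.39) did not pass 1.5-fold. The other Zfp521 probe set differed by -0.11. Mapt, lower among the neurite growth genes beside Dpysl3, also fell short with the mean of probe sets (-0.48). The summed level of the 14 genes was 10.99 and 10.62 in the Hey1 line, against 10.78 and 10.44 in the Hey2 line, and the part of a neural subpopulation in these differences was not tested.

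Other genes among the most negative differences had varied roles. Cnpy1, an Fgf signalling regulator, read 8.78 and 7.84, and 7.80 and 7.07 in the Hey2 line. Pcolce2, which promotes collagen processing, read 11.08 and 10.24, and 11.09 and 10.12 in the Hey2 line. Zfhx3, a large homeobox factor, read 7.46 and 6.73, and 8.50 and 7.67 in the Hey2 line. These genes were lower on the array labelled induced of each line. Others were not shared: Pygm, the muscle glycogen phosphorylase, differed by -0.80 in the Hey1 line, against 0.42 in the Hey2 line, and Vstm5 by -0.76 and 0.47. For 19 of the 71 genes at least 1.5-fold lower the value labelled induced lay below the filter.

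**Figure D3:**
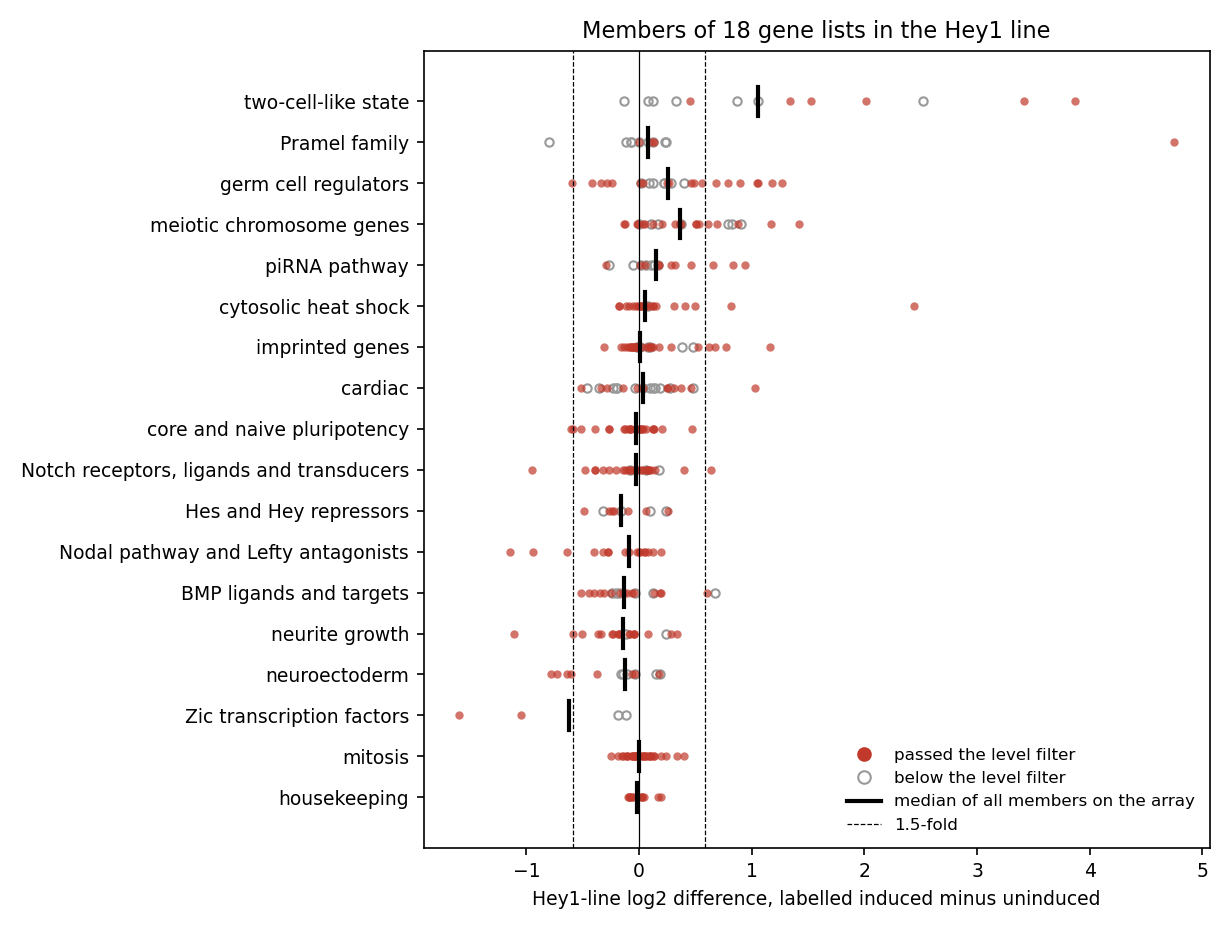
Hey1-line difference (labelled induced minus uninduced, log2) of the members of 18 gene lists; each point is a gene, filled if it passed the level filter and open if not, the bar is the median of all members on the array, dashed lines mark 1.5-fold, and there is 1 array a side. The two-cell-like median of 1.05 lies furthest above 0 and the Zic median of -0.62 furthest below it.

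The Notch pathway, to which Hey factors belong, showed 1 gene past 1.5-fold in each direction among 28, against 1.64% higher and 0.572% lower of all genes. Jag1, a membrane-bound Notch ligand, read 8.62 and 7.67 in the Hey1 line, against 8.38 and 7.0 in the Hey2 line. All probe sets of Jag1 were lower, with -0.41, -0.55 and -0.95. Dtx4, a regulator of Notch trafficking, was higher by 0.64 in the Hey1 line, against 0.08 in the Hey2 line. Its other probe set differed by -0.18, and with the mean of its probe sets, 0.23, Dtx4 did not pass 1.5-fold. Among the receptors Notch1 differed by -0.48, Notch2 by -0.39 and Notch3 by 0.40, and the ligand Dll1 differed by -0.20. The other Notch1 probe set differed by -0.05.

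Of 11 Hes and Hey genes 0 passed 1.5-fold in the Hey1 line, and their median was -0.16. Hes1, a Notch target and repressor of the same family, read 9.46 and 8.97, a difference of -0.49, and differed by -1.11 in the Hey2 line. Hes5, Hes6 and Heyl differed by -0.24, -0.27 and 0.26. Of 14 Hey corepressor genes 0 passed 1.5-fold. Of all genes on the array 1.64% were at least 1.5-fold higher and 0.572% lower, so counts of 0 in lists this short lie near that share.

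The Jag1 promoter, at chr2:137116521-137116770 on the minus strand in RefSeq GRCm38.p6, is shown because it holds CACGCG, an E-box variant that Hey proteins bind, in either orientation and in capitals, beginning at -249 and -171 counted from the start.
Jag1: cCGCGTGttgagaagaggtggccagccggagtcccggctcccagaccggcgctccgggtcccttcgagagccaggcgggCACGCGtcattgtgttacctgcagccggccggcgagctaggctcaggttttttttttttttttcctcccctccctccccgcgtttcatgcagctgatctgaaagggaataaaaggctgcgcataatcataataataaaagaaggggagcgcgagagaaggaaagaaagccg
CACGCG was found in 9.27% of all promoters and 16.8% of those of compared genes. Of the genes at least 1.5-fold lower, 10 of 54 held it (18.5%), against 19.9% of compared genes, so its frequency among lower genes was near the background.

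Several large functional groups had medians near 0. Of 50 lists 17 had no compared member past 1.5-fold, a choice that by itself holds their medians within that bound. Of all compared genes 1.84% were at least 1.5-fold higher and 0.587% lower. The medians ran from -0.23 for 7 compared Hes and Hey genes to 0.11 for 6 compared mesoderm genes. Among the 17 lists were 82 respiratory chain genes with a median of -0.05, 76 mitochondrial ribosomal protein genes with -0.04 and 33 mitosis genes with 0.00.

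The Hey2-line pair, which shares no array with the Hey1-line pair, gave a background measured the same way. There 83 genes were at least 2-fold higher (0.686%) and 29 lower (0.24%), and the scaled deviation of its differences was 0.22. Of the 53 genes at least 2-fold higher in the Hey1 line, 44 (83.0%) also lay above 0 in the Hey2 line, and of all compared genes 63.6% lay on the same side of 0 in both pairs. Of the same 53, 12 were past 2-fold there, which is 22.6% of the Hey1-line genes and 14.5% of the Hey2-line genes. Of the 222 genes at least 1.5-fold higher, 93 were so in the Hey2 line (41.9%), where 3.02% of genes were, and of the 71 lower genes 27 (38.0%), where 2.46% were. These shared genes made up 25.5% and 9.06% of the corresponding Hey2-line genes.

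On the higher side, 23 of the 53 genes at least 2-fold higher differed by less than 0.5 in the Hey2 line. The share of all compared genes within 0.5 in that line is not given here. Of the 53, 25 (47.2%) were at least 1.5-fold higher in the Hey2 line, against 3.02% of all compared genes. In addition, 20 of the 53 lay below the level filter on both Hey2-line arrays and were compared only because of a Hey1-line value. Of the 11 genes at least 4-fold higher, 8 differed by less than 0.5 in the Hey2 line, and 9 lay below the level filter on both Hey2-line arrays. All 11 were lower on the Hey2 uninduced than on the Hey1 uninduced array. Fgf1, an Fgf ligand, read 5.42 and 7.32 in the Hey1 line but 5.95 and 4.73 in the Hey2 line. Sbsn, a secreted epidermal protein, read 5.92 and 7.15, and 6.58 and 5.82. On these probe sets both genes thus differed in opposite directions in the lines, but their other probe sets did not all do so. Probe sets with several symbols or none were at least 2-fold higher in 0.317% of cases in the Hey1 line, against 1.04% in the Hey2 line, and lower in 0% and 0.0198%.

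The spread between the uninduced arrays was wider than that between the Hey1-line arrays. With the Hey2 uninduced minus the Hey1 uninduced array, 100 genes were at least 2-fold higher (0.827%) and 137 lower (1.13%), and at 1.5-fold 4.5% were higher and 4.42% lower, and the scaled deviation was 0.29. This comparison shares the Hey1 uninduced array with the Hey1-line difference. The difference between 2 uninduced arrays includes line as well as array, and how much 2 arrays of the same line and treatment differ was not measured here.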

How the data were processed

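RNA of 4 samples was hybridised to Affymetrix arrays, 1 array per group. The authors deposited log2 values of probe sets computed by RMA, per the submitters' processing notes. That method subtracts background, equalises the distributions of the arrays and combines the probes of each set. RMA's version, the chip description and the build stay not given in the sources used here. Values ran from 2.67 to 15.2, the range of a log2 scale. Scanner files were not used here, and having only 4 arrays limits the precision.

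Groups were taken from the sample titles. The platform annotation, which can be old, gave 34958 probe sets 1 symbol, 932 several and 9211 none, and only the first were used for genes. The identifiers of 34754 of these probe sets matched the RefSeq gene table. Differences were labelled induced minus uninduced and were called at 2-fold, or at 1.5-fold for lists, with no p-value. Counts of list members cover all those on the array, with no level filter unless stated. The list of all germline genes joins 3 lists. Promoters came from RefSeq, GRCm38.p6. Promoters of Lefty1, Lefty2 and Zic2 were not used here.

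Genes were named by a rule: Hey1 and Hey2, up to 40 genes at least 2-fold higher and all lower, the 25 most negative, and members of each list past 1.5-fold or among the 6 largest, with clone names left out except the largest difference. The members, lists and rule were chosen with earlier results of these data known. Alternatives were another level filter, the mean of probe sets, an offset of 32 on the linear scale, median centring, cyclic loess and the Hey2 uninduced array as reference. The counting was tested on simulated data. Python 3.11.15, numpy 2.4.6, pandas 2.3.3, matplotlib 3.10.9, R 4.3.3 and limma 3.58.1 were used.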

Additional observations from a re-analysis of the deposited data

Results flagged for a closer look

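Fgf1 differed by 1.90 between the Hey1-line arrays and by -1.22 between the Hey2-line arrays, and Sbsn by 1.23 and -0.76. With 1 array per group, the difference between the lines was not tested. In the Hey1 line the other probe sets differed by 0.42 and -0.22 for Fgf1 and by 2.13 and -0.02 for Sbsn. The same probe sets differed in the Hey2 line by -0.94 and -0.34 for Fgf1 and by 0.18 and -0.37 for Sbsn.

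Among 10092 probe sets with several symbols or none, which the gene comparisons above did not use, 32 were at least 2-fold higher in the Hey1 line (0.317%) and 0 were lower. On the Hey2-line arrays 22 of these 32 lay below the level filter, and 5 were at least 2-fold higher there. In the Hey2 line 105 such probe sets were at least 2-fold higher (1.04%). The largest Hey1-line difference was 3.20, for a probe set without a name here, which read 6.88 and 10.08 in the Hey1 line and 4.12 and 4.74 in the Hey2 line.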

How the results depend on the processing

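No paired analysis was possible because each group holds 1 array and the labels give no replicate numbers, and for the same reason no array could be left out. The counts of genes depended on the level filter. At 2-fold, 57 genes were called (53 higher, 4 lower), and at 1.5-fold 293 (222 and 71). With the filter at the 75th percentile these became 24 (21 higher) and 103 (67 and 36). With both Hey1-line arrays at the median, 34 genes (31 higher) passed 2-fold. An offset of 32 on the linear scale gave 33 (30 higher) and 154 (121 and 33), so low-level genes carry much of the count. With the Hey2 uninduced array as reference the counts were 387 (252 and 135) and 1474 (793 and 681). Centring, cyclic loess and the other settings left gene counts within 1.5 times.

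Among named genes past 1.5-fold and list medians beyond the scaled deviation of 0.16, and where a setting gave a value, signs reversed with the Hey2 uninduced array as reference and with none of the other settings. Smaller differences could change sign: Dpysl5 was 0.08 and became -0.07 with the mean of probe sets, and Notch3 was 0.40 and became -0.33 with the Hey2 uninduced array. With the mean of probe sets Sox1 (-0.40), Ncam1 (-0.27), Zfhx3 (-0.39), Mapt (-0.48), Grb10 (0.10), Jade2 (0.50) and Dmc1 (0.55) did not pass 1.5-fold. Neither did Tfap2c (0.47), Dtx4 (0.23), Vegfa (0.39), Dnah8 (-0.39) and Zmat4 (-0.44). With the Hey2 uninduced array the reversed values were 0.045 for Cnpy1, 0.25 for Dnah8, -0.28 for Dtx4, -0.41 for Egr1 and -3.21 for Grb10. Those of Lrrc31, Mapt, Ncam1, Rhox9 and Rnf128 were 0.56, 0.53, 0.14, -0.27 and -0.89. Those of Sox1, Vstm5, Zfp521, Zic2, Zic5 and Zp3 were 0.31, 1.02, 0.047, 0.055, 0.31 and 0.57. The median of the 2 compared Zic genes was -1.32 and became 0.18. The cause was not tested.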
